A study of Homo sapiens with 17 samples.

Results

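The 10 genes described here encode proteins of base excision repair and single-strand break repair, namely *UNG*, *OGG1*, *MUTYH*, *APEX1*, *POLB*, *PARP1*, *PARP2*, *XRCC1* and *LIG3*, together with the direct reversal enzyme *MGMT*. The rule that names them uses no measured value, although the list was drawn up with earlier results of these data known, and they were found by matching their symbols to the Ensembl gene identifiers of the deposited table. All 10 of 10 were found among its 60664 genes, and all 10 averaged 10 or more normalized counts, which a gene needed to be tested and which 15599 genes of the table did. RNA-Seq was done on SF8628, an established line grown from a diffuse intrinsic pontine glioma, a childhood tumour of the brainstem. Cells received the vehicle DMSO or 1 µM AZD5153, an inhibitor of BET bromodomain proteins, for 24 or 48 hours. The 4 groups, DMSO at 24 hours, AZD5153 at 24 hours, DMSO at 48 hours and AZD5153 at 48 hours, held 3 libraries each. All came from this 1 line with no transgene, knockout or radiation named for them, and nothing in the labels says whether replicates were separate cultures, so the p-values below measure the spread between libraries, which may be technical.

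Base excision repair removes small chemical damage to DNA bases. A glycosylase cuts the damaged base from the sugar, an endonuclease nicks the strand at the empty site, a polymerase fills the gap and a ligase seals it. PARP enzymes bind the strand breaks and build chains of ADP-ribose that draw in the scaffold protein XRCC1 and its partners. MGMT works alone and in a single step, taking a methyl group off the O6 position of guanine, and is known in gliomas for removing the lesion made by temozolomide.

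The libraries held between 15759148 and 27335220 reads on genes, with a median of 20737337. DMSO at 24 hours replicate 1 stood apart from replicates 2 and 3 of its group, at a chi-square per degree of freedom of 16.8 and 25.6 over genes, against 2.12 to 5.21 in the other pairs of replicates, and the calls of the 10 genes that changed without it are named below. Of 12 glial markers, 8 reached the mean of 10 normalized counts, led by *VIM* (mean 18049), *CSPG4* (1581) and *NES* (1336). *OLIG1* and *OLIG2* were at 0 in every library and *PDGFRA* averaged 2.66. Of 9 markers of immune, endothelial and neuronal cells, 4 reached that mean, namely *SYT1* (775), *PECAM1* (223), *VWF* (46.2) and *SNAP25* (29.1). The 9 together were lower with AZD5153 without overlap, at sums of 1030 to 1218 in the controls and 805 to 917 in the treated libraries at 24 hours, and 1298 to 1523 and 861 to 975 at 48 hours. The glial sums were also lower without overlap, at 24187 to 32394 against 19467 to 21237 at 24 hours and 20320 to 21083 against 16291 to 17865 at 48 hours. Most of the glial sums was *VIM*, and most of the other sums was *SYT1* and *PECAM1*, so neither describes its whole marker set. The part of either marker set in the results below was not tested. Across all tested genes, AZD5153 was followed by changes in most of them. At 24 hours 33.9% of tested genes were higher and 34.6% were lower at an adjusted p under 0.05 (limma with Benjamini-Hochberg adjustment). The 48-hour shares were 33.1% and 33.9%. With library totals set equal in place of the deposited scaling, the median log2 fold change of all genes moved to -0.12 at 24 hours and -0.17 at 48 hours, and the share of calls that were higher moved from 49.4% to 37.4% at 48 hours.

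Against that background, 8 of the 10 genes changed at 24 hours. Of these, 3 rose (*PARP1*, *OGG1* and *POLB*) and 5 fell (*XRCC1*, *PARP2*, *UNG*, *LIG3* and *MGMT*). At 48 hours the same 8 genes changed in the same directions and *APEX1* fell as well, giving 3 higher and 6 lower. *MUTYH* passed the test at neither time. The median log2 fold change of the 10 was -0.48 at 24 hours and -0.44 at 48 hours, against 0.00037 and 0.0011 for all tested genes. The 3 rising and 5 falling genes at 24 hours did not overlap between treated and control libraries, a pattern seen in 34% of tested genes in the upward direction and 34.8% in the downward direction. The 3 rising and 6 falling genes of 48 hours did not overlap either, against 37.5% and 37.2% of tested genes. Fewer cells that contain a transcript and less of it per cell cannot be told apart in these bulk libraries.

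**Figure D1:**
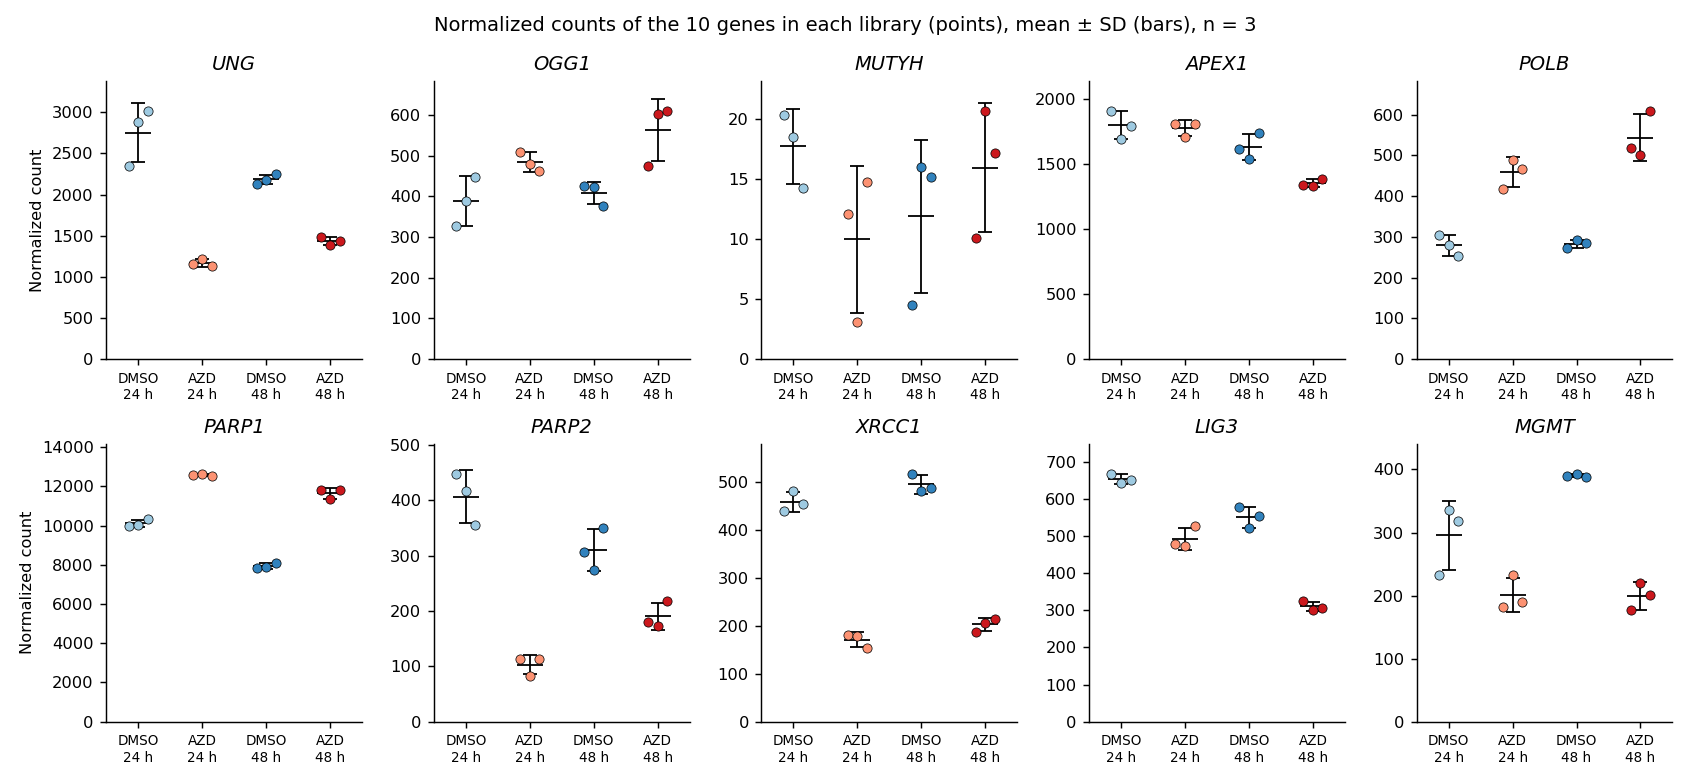
Normalized counts (y axis, from 0, its own scale in each panel) of the 10 genes in the 4 groups (x axis, AZD standing for AZD5153), with 1 point per library and bars at the mean ± SD of 3 libraries. Treated points lie clear of the control points of the same time for *PARP1*, *OGG1* and *POLB* (above) and *UNG*, *PARP2*, *XRCC1*, *LIG3* and *MGMT* (below) at both times, for *APEX1* at 48 hours, and for *MUTYH* at neither.

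Levels of different genes were compared per kilobase of the Ensembl canonical transcript, whose length ran from 1290 bases for *POLB* to 8382 for *LIG3*. Which transcripts were in use was not measured, so the order rests on 1 assumed length per gene. Before this division *LIG3* averaged 654 normalized counts in DMSO at 24 hours, above *XRCC1* (458), *PARP2* (407), *OGG1* (388) and *POLB* (279). In DMSO at 24 hours the order from the top was *PARP1*, *UNG*, *APEX1*, *OGG1*, *XRCC1*, *PARP2*, *POLB*, *LIG3*, *MGMT* and *MUTYH*. *PARP1* stood at 2540.2 ± 49.7 normalized counts per kilobase (SD, n = 3), *MGMT* at 63.2 ± 11.7 and *MUTYH* at 10.4 ± 1.81. The libraries of *UNG* and *APEX1* overlapped, as did those of each neighbouring pair from *OGG1* down to *POLB*, so the order among these 4 was not resolved. With AZD5153 at 24 hours *POLB* had rank 4 at 355 ± 28.2 per kilobase and *PARP2* rank 8 at 56.5 ± 9.60, where its libraries overlapped those of *LIG3* above it and *MGMT* below it. In DMSO at 48 hours the libraries of *APEX1* and *UNG* overlapped, as did those of *OGG1* and *XRCC1*. With AZD5153 at 48 hours *PARP2* overlapped *XRCC1*, and *MGMT* overlapped *LIG3*. *PARP1* was first and *MUTYH* last in all 4 groups, with no overlap with their neighbours.

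**Figure D2:**
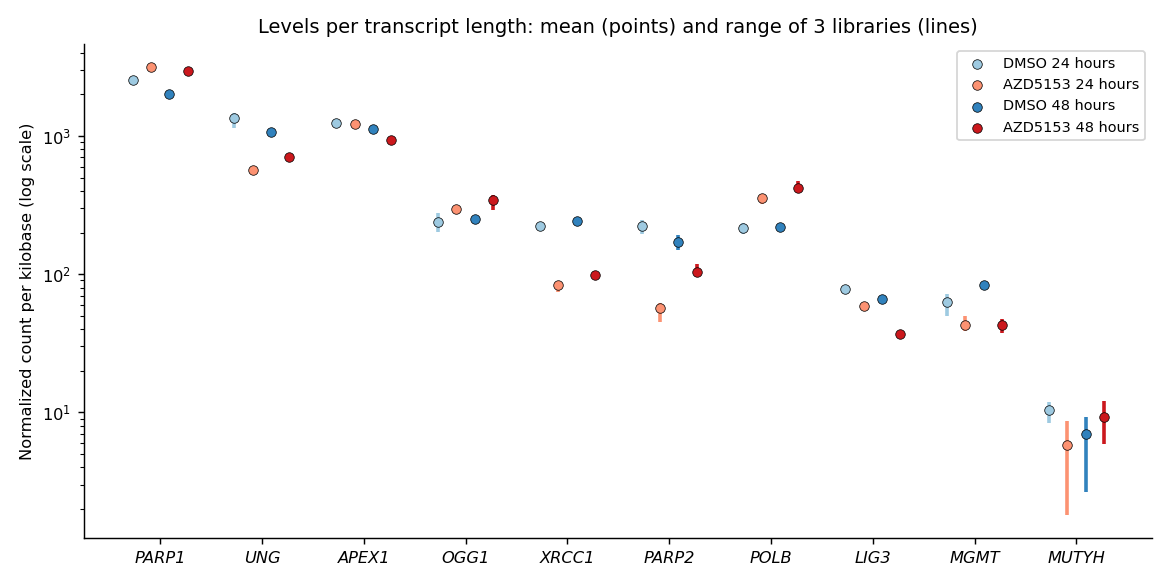
Normalized counts per kilobase of canonical transcript (y axis, log scale) of the 10 genes (x axis, ordered by DMSO at 24 hours) in the 4 groups, with the mean as a point and the range of 3 libraries as a line. *PARP1* is highest and *MUTYH* lowest in each group, while *XRCC1*, *PARP2*, *OGG1* and *POLB* lie together in DMSO at 24 hours and apart with AZD5153 at 24 hours.

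The promoters of 5 genes are shown because these genes form the pairs whose balance is compared below (*PARP1* with *PARP2*, *LIG3* with *XRCC1*) or carry many CpG dinucleotides (*MGMT*, 36 in the 250 bases before its start, more than 95.1% of promoters). The sequences are from the RefSeq promoter table on GRCh38.p14, in which 9 of the 10 genes had an entry and *POLB* did not. Each runs 5′ to 3′ on the strand of its gene, begins 250 bases before the RefSeq start and stops before the first base that GENCODE places in an exon of the gene. Capitals mark the GC box (GGGCGG or CCGCCC), the CCAAT box (CCAAT or ATTGG) and the E-box (CACGTG).
PARP1, chr1:226408155-226408343, minus strand: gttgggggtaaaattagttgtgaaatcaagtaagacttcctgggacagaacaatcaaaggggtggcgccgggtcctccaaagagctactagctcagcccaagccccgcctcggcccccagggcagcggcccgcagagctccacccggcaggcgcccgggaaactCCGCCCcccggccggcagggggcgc
PARP2, chr14:20343385-20343614, plus strand: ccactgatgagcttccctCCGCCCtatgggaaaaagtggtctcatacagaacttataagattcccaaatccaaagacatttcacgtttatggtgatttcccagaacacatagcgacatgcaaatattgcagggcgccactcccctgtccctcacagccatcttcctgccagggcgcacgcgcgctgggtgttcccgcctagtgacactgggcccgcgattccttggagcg
XRCC1, chr19:43575564-43575777, minus strand: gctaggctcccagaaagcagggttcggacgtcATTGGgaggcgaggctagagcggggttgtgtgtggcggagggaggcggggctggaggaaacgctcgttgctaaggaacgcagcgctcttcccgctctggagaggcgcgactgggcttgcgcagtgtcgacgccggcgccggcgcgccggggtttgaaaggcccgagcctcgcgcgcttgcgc
LIG3, chr17:34980262-34980511, plus strand: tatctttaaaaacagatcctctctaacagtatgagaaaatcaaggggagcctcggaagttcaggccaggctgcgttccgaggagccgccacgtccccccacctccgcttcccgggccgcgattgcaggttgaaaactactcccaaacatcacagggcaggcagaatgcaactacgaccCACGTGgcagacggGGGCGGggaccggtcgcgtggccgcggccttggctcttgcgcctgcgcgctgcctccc
MGMT, chr10:129466991-129467189, plus strand: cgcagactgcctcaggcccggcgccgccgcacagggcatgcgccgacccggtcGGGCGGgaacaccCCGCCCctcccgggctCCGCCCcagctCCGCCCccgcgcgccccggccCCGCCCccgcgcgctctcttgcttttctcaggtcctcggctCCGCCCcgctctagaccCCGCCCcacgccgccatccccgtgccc

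These and 3 further motifs were searched on both strands in the whole 250 bases before each start, of which the stretches above are the part outside exons, and no match overlapped another. The 9 genes had 12 promoter entries, since *UNG* and *MUTYH* have several starts. The GC box was found in 10 of the 12 entries (8 of the 9 genes), with 8 matches in *MGMT* (7 of them in the printed part), 2 in *PARP1* and 1 each in *PARP2*, *XRCC1* and *LIG3*. It was present in 42.6% of all 35116 promoters of the table. The CCAAT box was found in 6 of the 12 entries (5 of the 9 genes), *XRCC1* among them, and in 32% of all promoters. The E-box was found in 3 of the 12 entries (3 of the 9 genes), with 1 match in *LIG3*, 3 in *APEX1* and 2 before the second of the *UNG* starts, and in 6.34% of all promoters. An ETS motif (CCGGAAG), E2F motifs (TTTCCCGC or TTTGGCGC) and a TATA box (TATAAA) were found in none of the 12 entries, and were present in 8.52%, 1.93% and 10.7% of all promoters. Only these exact letters were searched, so the entries may hold other forms of the motifs.

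The glycosylases came first in the pathway, and *UNG*, *OGG1* and *MUTYH* moved in different ways. *UNG* (ENSG00000076248, chromosome 12 from 109097597 to 109126725 on the plus strand of GRCh38) encodes uracil DNA glycosylase, in a nuclear and a mitochondrial form that start at separate promoters. In DMSO at 24 hours its libraries held 2341, 2888 and 3018 normalized counts. With AZD5153 at 24 hours they held 1156, 1221 and 1130, all well under the lowest control. At 48 hours the controls held 2130, 2174 and 2245 and the treated libraries 1486, 1386 and 1431, again without overlap but closer together. The log2 fold change was -1.23 at 24 hours (SE 0.078, adjusted p = 1.1e-09) and -0.61 at 48 hours (adjusted p = 4.1e-06). The difference between those effects, 0.62 (95% interval 0.38 to 0.85), passed its own test (adjusted p = 0.00081). The gene counts do not separate the nuclear and mitochondrial forms.

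*OGG1* (ENSG00000114026, chromosome 3 from 9749944 to 9788219, plus strand), which removes 8-oxoguanine, rose modestly. The 24-hour controls spread over 327, 389 and 448 normalized counts, and the treated libraries held 509, 480.2 and 463, so the lowest treated library was just above the highest control. By 48 hours its controls held 424, 422 and 377 and the treated libraries 475, 602 and 610.1. Its log2 fold change was 0.33 at 24 hours (SE 0.12, adjusted p = 0.022) and 0.46 at 48 hours (adjusted p = 0.003), a difference of 0.13 with an interval of -0.23 to 0.48. The 24-hour call depended on single libraries, since without DMSO replicate 1, the library that stood apart, the log2 fold change was 0.21 (adjusted p = 0.079), and without AZD5153 replicate 1 it was 0.29 (0.076). It was also lost with equal totals, where the log2 fold change was 0.21 and the adjusted p 0.13, and the 48-hour value was 0.28 with equal totals, still past the threshold. The exons of *OGG1* share 356 bases with the opposite-strand gene *TADA3*, which averaged 2134 normalized counts and fell (log2 fold change -0.19 at 24 hours and -0.22 at 48 hours), and 2175 bases with *CAMK1*, which averaged 39.8.

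*MUTYH* (ENSG00000132781, chromosome 1 from 45329163 to 45340893, minus strand), which removes adenine paired with 8-oxoguanine, was close to the detection limit with 3 to 26 reads per library. The 24-hour values were 20.3, 18.5 and 14.3 normalized counts in the controls and 12.1, 3.07 and 14.7 with AZD5153. The 48-hour values were 4.5, 16.0 and 15.1 in the controls and 10.0, 20.6 and 17.1 with AZD5153. The groups overlapped at both times. At this depth no difference was detectable, the intervals of the log2 fold change running from -2.15 to 0.20 at 24 hours (adjusted p = 0.13) and from -0.66 to 1.68 at 48 hours (adjusted p = 0.43). Its exons share 1838 bases with a same-strand gene model, ENSG00000288208, that was listed at 0 in every library, and 491 bases with the opposite-strand gene *TOE1*, which averaged 160 and fell at both times. The part of these overlaps in the low count of *MUTYH* was not tested.

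*APEX1* (ENSG00000100823, chromosome 14 from 20455191 to 20457772, plus strand) encodes the endonuclease that nicks the strand at the empty site. The groups overlapped at 24 hours, with 1906, 1693 and 1793 normalized counts in the controls and 1807, 1707 and 1808 with AZD5153. The 24-hour log2 fold change was -0.018 (95% interval -0.15 to 0.11, adjusted p = 0.81). At 48 hours the controls held 1612, 1533 and 1735 and the treated libraries 1336, 1329 and 1385, with no overlap. *APEX1* then fell by 0.27 on the log2 scale (SE 0.062, adjusted p = 0.0012), a fold of 0.831, and by 0.44 with equal totals. The change between the effects, -0.25, was just past the threshold (adjusted p = 0.049) and was lost when any of 10 of the 12 libraries was left out, at values of -0.20 to -0.28. It was also lost with scaling to 7 stably expressed genes (-0.18, adjusted p = 0.20), with no minimum mean (0.097) and with an untrended prior (0.083).

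*POLB* (ENSG00000070501, chromosome 8 from 42338454 to 42371808, plus strand), the polymerase that fills the single-base gap, showed the largest increase of the 10 at both times. The 24-hour controls held 304, 280.4 and 252 normalized counts and the treated libraries 418, 489 and 468. The 48-hour controls held 272, 292 and 285 and the treated libraries 519, 502 and 609. Every treated library exceeded every control by over 100 normalized counts. Its log2 fold change was 0.72 at 24 hours (SE 0.10, adjusted p = 1.3e-05) and 0.93 at 48 hours (adjusted p = 6.6e-07), folds of 1.64 and 1.91. The difference of 0.22 did not pass its test (interval -0.088 to 0.53, adjusted p = 0.29).

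*PARP1* and *PARP2* encode the enzymes that sense strand breaks and make ADP-ribose chains, and they moved in opposite directions. *PARP1* (ENSG00000143799, chromosome 1 from 226360210 to 226408154, minus strand) held 9979, 10003 and 10333 normalized counts in the 24-hour controls and 12568, 12649 and 12518 with AZD5153. At 48 hours it held 7832, 7901 and 8096 in the controls and 11791, 11328 and 11809 with AZD5153. The replicates were tight and every treated library was above every control of either time. The log2 fold change was 0.32 at 24 hours (SE 0.038, adjusted p = 2.1e-06) and 0.55 at 48 hours (adjusted p = 3e-09). The difference between these effects of 0.24 (adjusted p = 0.0052) went with a lower 48-hour control, since *PARP1* fell by 0.35 between the DMSO groups and by 0.11 between the AZD5153 groups. The size of the increase depended on the scaling, at 0.13 and 0.25 for the 2 times with quantile normalization and 0.19 at 24 hours with equal totals, and each still passed. With quantile normalization the difference between the effects was 0.12 (adjusted p = 0.14).

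*PARP2* (ENSG00000129484, chromosome 14 from 20343615 to 20357904, plus strand) showed the largest decrease of the 10 at 24 hours. Its controls held 449, 416 and 356 normalized counts and its treated libraries 114, 82.9 and 113. After 48 hours its controls held 307, 274 and 350 and the treated libraries 180, 174 and 218. The treated libraries were lower at both times, and the gap had narrowed by 48 hours. The log2 fold change was -1.98 at 24 hours (SE 0.15, adjusted p = 7.8e-09) and -0.70 at 48 hours (adjusted p = 0.00059). The difference of 1.28 (95% interval 0.83 to 1.72, adjusted p = 0.00045) was the largest of the 10 that passed.

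*XRCC1* (ENSG00000073050, chromosome 19 from 43543311 to 43580473, minus strand) is the scaffold that holds polymerase, ligase and end-processing enzymes at the break. Its 24-hour controls held 438, 480.5 and 454 normalized counts and its treated libraries 179.7, 179 and 153. The 48-hour controls held 517, 480.5 and 486 and the treated libraries 188, 205 and 215. Every treated library was far below every control of its time. The decrease was -1.42 on the log2 scale at 24 hours (SE 0.098, adjusted p = 2.8e-09) and -1.28 at 48 hours (adjusted p = 9.6e-09), and the difference of 0.14 did not pass its test (interval -0.16 to 0.43, adjusted p = 0.51).

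*LIG3* (ENSG00000005156, chromosome 17 from 34980512 to 35009743, plus strand), the ligase that pairs with XRCC1 and also serves mitochondrial DNA, fell further with time. Its 24-hour controls held 668, 642 and 651 normalized counts and its treated libraries 479, 473 and 526. The 48-hour controls held 577, 521 and 553 and the treated libraries 325, 302 and 306. This gave a log2 fold change of -0.41 at 24 hours (SE 0.077, adjusted p = 0.00021) and -0.82 at 48 hours (adjusted p = 1.2e-07), and the added decrease of -0.41 passed its test (adjusted p = 0.012). The exons of *LIG3* share 3754 bases with *RFFL* on the opposite strand, which averaged 169.6 normalized counts and did not pass the test at either time (adjusted p = 0.11 and 0.41).

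*MGMT* (ENSG00000170430, chromosome 10 from 129467190 to 129770983, plus strand) was expressed in every library and fell. The 24-hour controls held 233, 335 and 318 normalized counts and the treated libraries 182, 232 and 189.7, where the highest treated library was 1 count under the lowest control. The controls of 48 hours held 390.0, 394 and 389 and the treated libraries 177, 221 and 200.2, a wide gap. The log2 fold change was -0.54 at 24 hours (SE 0.14, adjusted p = 0.0028) and -0.97 at 48 hours (adjusted p = 1.3e-05), folds of 0.687 and 0.509, and with quantile normalization the 24-hour value was -0.35. The difference of -0.43 had an interval of -0.85 to -0.013 and did not pass after adjustment (adjusted p = 0.13). The treated groups had means of 201.5 ± 27 and 199 ± 21.9 (SD, n = 3) at the 2 times, a log2 difference of -0.014 (interval -0.31 to 0.28), and the control mean went from 296 ± 54.6 to 391 ± 2.54.

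**Figure D3:**
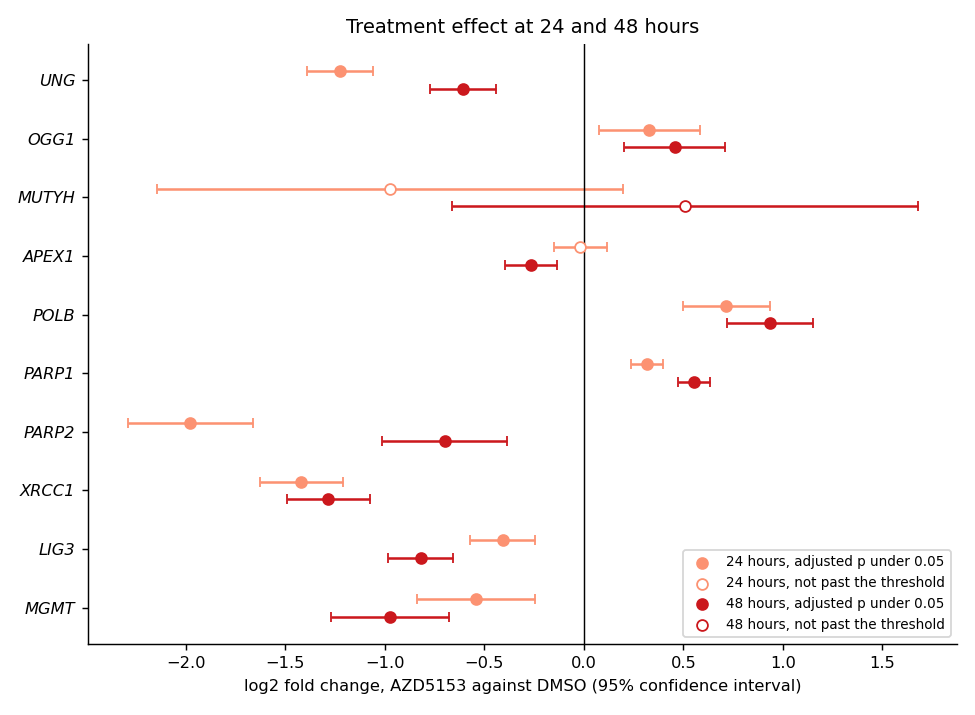
Log2 fold change of AZD5153 against DMSO (x axis) for each of the 10 genes (y axis) at 24 and 48 hours, with 95% confidence intervals from the limma fit. Filled points had an adjusted p under 0.05 and open points did not. *PARP2* and *UNG* lie closer to 0 at 48 than at 24 hours, *LIG3* and *PARP1* lie farther from 0, and the intervals of *MUTYH* are the widest.

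The treatment effect differed between the times for 5 of the 10 genes, against 24.5% of tested genes. The decreases of *PARP2* and *UNG* were smaller at 48 hours, *PARP1* stood farther above its controls, which had fallen more than the treated libraries, *LIG3* fell further, and *APEX1* fell at 48 hours only. Over all genes the share of such calls that were higher was 58.9%, and 48.2% with equal totals and 70.7% with scaling to 7 stably expressed genes. Time alone was also compared within each treatment, and these comparisons share their libraries with the treatment comparisons. Between the DMSO groups, *MGMT* rose (log2 fold change 0.42) and *PARP1*, *UNG* and *LIG3* fell (-0.35, -0.32 and -0.25), which makes 4 of 10 genes against 35.7% of tested genes. The *MGMT* call was lost when DMSO at 24 hours replicate 1 (adjusted p = 0.11) or any 1 of the 3 DMSO libraries at 48 hours (0.068 to 0.075) was left out and with an untrended prior (0.051), and without the first of these, which stood apart, its value was 0.26. The *LIG3* call was lost without DMSO at 48 hours replicate 2 (adjusted p = 0.089) and with equal totals (0.061). *PARP2* (-0.39, adjusted p = 0.052) missed the threshold and passed it when any of 3 libraries was left out and under 6 other settings, among them the replicate block (0.047), edgeR (0.032) and DESeq2 (0.023). *APEX1* (-0.14, adjusted p = 0.082) missed it too and passed without DMSO at 24 hours replicate 2 (-0.19, just under the threshold at 0.050) or DMSO at 48 hours replicate 3 (-0.19, 0.041). Between the AZD5153 groups, *PARP2* rose (0.89) and so did *UNG* (0.30), while *LIG3* (-0.66), *APEX1* (-0.39) and *PARP1* (-0.11) fell, which makes 5 of 10 genes against 29.7% of tested genes. The last of these, *PARP1*, had an adjusted p of 0.038 that was over 0.05 when any of 9 of the 12 libraries was left out, with a highest value of 0.15 without AZD5153 at 48 hours replicate 2. It was also lost with the replicate block (0.061), quantile normalization (0.058), no minimum mean (0.12) and an untrended prior (0.092), and with the 7 stably expressed genes the value was -0.028 (0.74). *POLB* (0.24, adjusted p = 0.088) did not pass, and its adjusted p was 0.043 without DMSO at 24 hours replicate 1 and 0.028 with the 7 stably expressed genes (0.33). *XRCC1* (0.25, adjusted p = 0.069) did not pass either, and its adjusted p was 0.025 with the 7 stably expressed genes (0.33) and 0.046 with an untrended prior. The share of all calls that were higher was 45.8% between the DMSO groups (56.2% with equal totals) and 53.4% between the AZD5153 groups (71.2% with the 7 stably expressed genes).

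The balance within 3 gene pairs was then compared, since a ratio within a library does not depend on how libraries are scaled. Each ratio was tested by an exact two-sided permutation of the treatment labels within each time (400 arrangements, smallest possible p 0.005), with Benjamini-Hochberg adjustment over the 3 pairs. Ratios are of normalized counts with no correction for transcript length, so they are read between groups and not as how far one gene lies above another. The ratio of *PARP1* to *PARP2* was 22.2, 24.0 and 29.0 in the 24-hour controls and 110.3, 153 and 111 with AZD5153. At 48 hours the ratios were 25.5, 28.8 and 23.1 in the controls and 65.6, 65.2 and 54.1 with AZD5153. The controls kept nearly the same ratio at both times (25.1 ± 3.53 and 25.8 ± 2.86, SD, n = 3), and the treated libraries stood apart from them at both. The ratio was 3.42-fold higher with AZD5153 over both times (log2 difference 1.77, exact permutation p = 0.005, adjusted 0.0075). This p was fixed in advance, since every treated library was higher in *PARP1* and lower in *PARP2* than every control of its time. It therefore adds nothing to the separate results of these genes.

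The ratio of *LIG3* to its partner *XRCC1* was 1.43 ± 0.094 in the 24-hour controls and 2.91 ± 0.455 with AZD5153. At 48 hours it was 1.11 ± 0.027 in the controls and 1.54 ± 0.163 with AZD5153. The transcript of the scaffold fell more than that of the ligase at both times, and the ratio was 1.67-fold higher with AZD5153 (log2 difference 0.74, exact permutation p = 0.005, adjusted 0.0075). The ratio of *MUTYH* to *OGG1*, both active against 8-oxoguanine damage, was 0.0318 to 0.0621 in the 24-hour controls and 0.0064 to 0.0317 with AZD5153, without overlap. At 48 hours the groups overlapped, with values from 0.0106 to 0.0401 in the controls and 0.0211 to 0.0343 with AZD5153. Its log2 difference of -0.63 did not pass (exact permutation p = 0.235, adjusted 0.235). It rested on few *MUTYH* reads, and without DMSO at 48 hours replicate 1 it was -0.91 with an adjusted exact permutation p of 0.015.

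**Figure D4:**
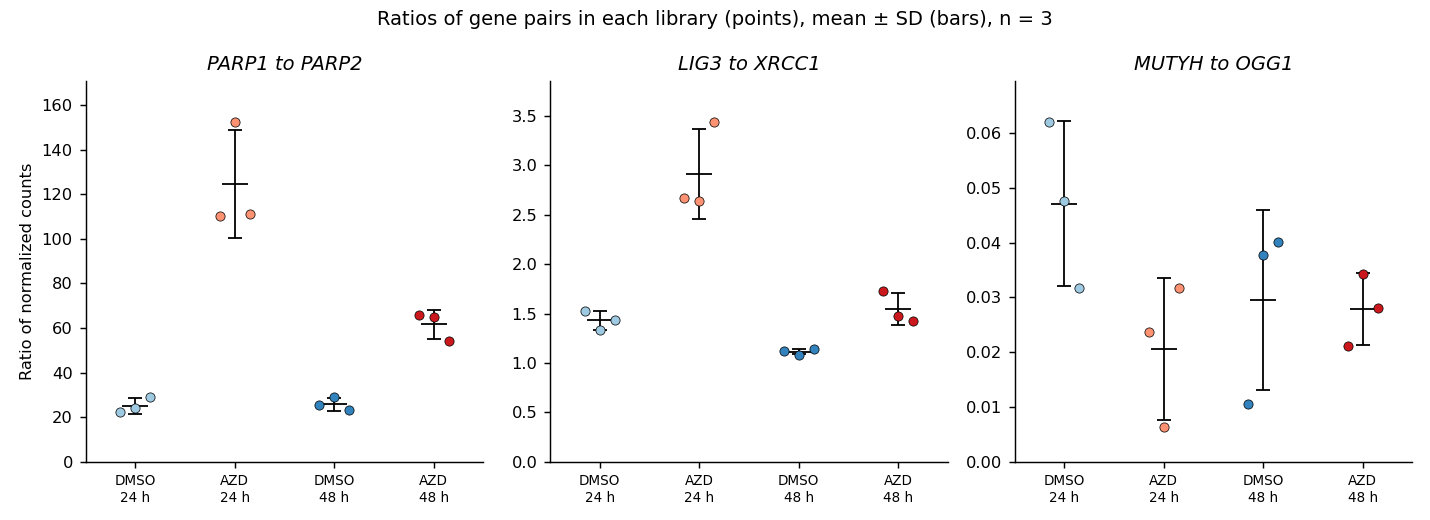
Ratio of normalized counts (y axis, from 0) for 3 gene pairs in the 4 groups (x axis), with 1 point per library and bars at the mean ± SD of 3 libraries. The treated points are above the controls of their time for *PARP1* to *PARP2* and *LIG3* to *XRCC1*, with the highest ratios at 24 hours, and mixed with them for *MUTYH* to *OGG1* at 48 hours.

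Lists of 45 further genes covered other parts of base excision and single-strand break repair, other direct reversal and mismatch repair. The treatment counts of each list below stand beside the shares of all tested genes. These were 33.9% higher and 34.6% lower at 24 hours, and 33.1% higher and 33.9% lower at 48 hours. Of 8 other glycosylases, 3 rose and 3 fell at 24 hours, and 2 rose and 4 fell at 48 hours, with list medians of -0.040 and -0.059. *NEIL3*, which acts on oxidized bases in single-stranded DNA, fell from 769 ± 62.7 to 195 ± 35.3 normalized counts at 24 hours (log2 fold change -1.99, adjusted p = 3.6e-10) and by 0.63 at 48 hours. *NEIL1* did not pass at 24 hours (-0.30, adjusted p = 0.16) and fell by 1.74 at 48 hours (adjusted p = 4.8e-07). *TDG*, the thymine DNA glycosylase, rose at both times (0.42 and 0.33). *SMUG1*, which like UNG removes uracil, rose by 0.29 and 0.26, calls that were lost with equal totals.

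Of 6 end-processing and scaffold partners, 2 rose and 2 fell at 24 hours and 2 rose and 3 fell at 48 hours, with list medians of 0.079 and -0.13. *TDP1*, which frees DNA ends from topoisomerase I, fell by 1.46 and 0.93. *APLF*, which binds ADP-ribose chains, rose by 0.66 and 1.19. Of 5 genes of ADP-ribose handling, 1 rose and 1 fell at each time, with list medians of 0.065 and -0.18. *PARP3* fell by 1.46 at 24 hours (adjusted p = 2.8e-10) and fell by 1.27 at 48 hours, and *PARG*, which breaks the chains down, rose by 0.22 and 0.37, the 24-hour call being lost with equal totals.

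Of 16 genes of long-patch synthesis and ligation, the branch that uses replication proteins, 13 fell and 1 rose at 24 hours and 12 fell and 1 rose at 48 hours. The list medians were -1.02 and -0.54, and 11 of the 16 had a less negative or more positive effect at 48 hours by the test of the difference. Over all tested genes, 2254 of 15599 did, a number that was 1760 with equal totals and 2812 with scaling to 7 stably expressed genes. Of the 3 with the highest mean counts, *PCNA*, the sliding clamp, fell by 1.07 and 0.41, and *RFC1*, of the clamp loader, by 0.70 and 0.35. *POLD2*, a subunit of polymerase delta, did not pass at 24 hours (-0.14, adjusted p = 0.083) and fell by 0.21 at 48 hours. Both *POLD2* calls turned with the scaling, since at 24 hours it passed with equal totals (-0.26, adjusted p = 0.0027), quantile normalization (-0.17, 0.038) and the 7 stably expressed genes (-0.19, 0.045), and at 48 hours it was lost with the last of these (0.053). The gene that rose at both times, named after its values were seen, was *POLE4*, an accessory subunit of polymerase epsilon (0.85 and 1.24). Both other direct reversal enzymes, *ALKBH2* and *ALKBH3*, fell at 48 hours (-0.44 and -0.46), and *ALKBH3* fell at 24 hours (-0.64). At 24 hours *ALKBH2* passed with equal totals (-0.28) and with the 7 stably expressed genes (-0.20).

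Of 8 mismatch repair genes, which are known to decide the response to the O6-methylguanine that MGMT removes, 4 fell and 3 rose at each time, with list medians of -0.29 and -0.034. *EXO1*, the exonuclease of this pathway, fell by 2.20 at 24 hours (adjusted p = 1.1e-12) and by 0.77 at 48 hours, and *MSH6* fell by 0.76 and 0.22. *MSH3*, *MLH3* and *PMS2* rose at both, by 0.16 to 0.29 at 24 hours, and with equal totals none of these 3 passed at 24 hours, while *MSH3* and *PMS2* were also lost there with the 7 stably expressed genes.

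Cell cycle genes moved in the same comparisons. Of 42 S phase genes of the Seurat list, taken without *UNG* (the only 1 of the 10 that the list of 43 holds), 40 fell at 24 hours and 34 fell at 48 hours, with medians of -1.50 and -0.77. Of 53 tested G2/M genes of that package, 51 fell at 24 hours and 48 fell at 48 hours, with medians of -1.83 and -0.997. By the test of the difference, 35 S phase and 46 G2/M genes had a less negative or more positive effect at 48 hours. Over all tested genes, 2254 of 15599 did. *PARP2*, *UNG* and *PARP1* also took this direction, while *LIG3* and *APEX1* took the opposite one. The controls themselves moved with time, since 40 S phase and 44 G2/M genes fell between the DMSO groups (medians -0.52 and -0.41). In that comparison 3015 of the 15599 tested genes fell. Of the 10 genes, *UNG*, *PARP1* and *LIG3* fell there and *MGMT* rose. The part of the cell cycle in the values of these genes was not tested.

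**Figure D5:**
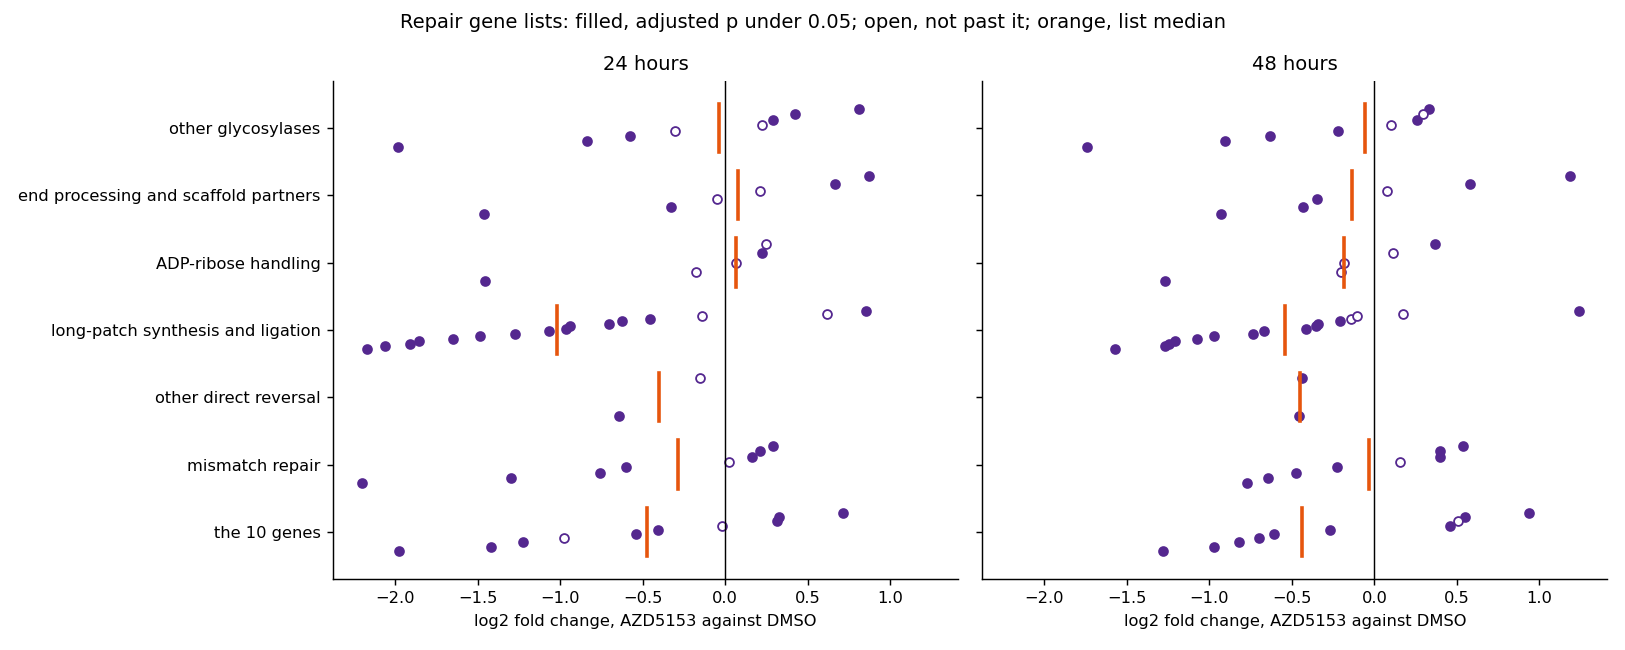
Log2 fold change of AZD5153 against DMSO (x axis) for each gene of 6 repair lists and of the 10 genes (rows) at 24 and 48 hours. Points are genes, filled where the adjusted p was under 0.05, and orange lines are list medians, lowest for long-patch synthesis and ligation at -1.02 (24 hours) and -0.54 (48 hours).

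The genes whose pattern was most like each of the 10 were sought among those averaging 100 or more normalized counts, as the smallest root mean square difference of the log2 values, each centred on its own mean over the 12 libraries. *NEIL3* was nearest to *PARP2* (0.12), followed by *KIF18A* (0.16) and *KIF11* (0.19). *TACC3* was nearest to *UNG* (0.075), *WDR1* to *PARP1* (0.035), *SGCE* to *XRCC1* (0.097) and *GRHPR* to *OGG1* (0.070). *ANXA5* was nearest to *APEX1* (0.057), *PHKA1* to *POLB* (0.085), *DYRK2* to *LIG3* (0.089) and *TMEM223* to *MGMT* (0.12). For *MUTYH* the nearest gene, *TMA7*, was still 0.56 away. Among the 10 themselves the closest pair was *PARP1* and *OGG1* (0.23), followed by *APEX1* and *LIG3* (0.26).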

How the data were processed

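RNA was extracted by the authors with a column kit, sequenced as paired-end reads, aligned to hg38 with STAR, counted on genes with HTSeq and scaled with DESeq2, as their methods and processing notes say. Versions, the annotation and the strand setting of the counting are not given in the sources used here. The deposited values of each library are a signal, namely normalized counts (gene counts divided by 1 size factor per library). Further columns give the authors' own comparison of AZD5153 with DMSO, with log2 fold changes by the authors, standard errors and Wald statistics (a score by the authors) and p-values by the authors, none of which was used. The H3K27ac libraries and the IgG control were not analysed here.

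Groups came from the labels of the libraries. The main test was limma (version 3.58.1, R 4.3.3) with a trended prior on log2(normalized count + 1), with all 4 groups fitted together (8 residual degrees of freedom), on the 15599 genes averaging 10 or more normalized counts, with Benjamini-Hochberg adjustment over all of them and a threshold of 0.05. Fold changes are on that scale, so those of low genes are understated. Whole reads could be recovered for 100% of values in every library (tolerance 0.1 of a read), and edgeR (4.0.16) on those reads called 10692 genes at 24 hours and 10577 at 48 hours, and DESeq2 (1.42.0) called 10607 and 10507. Other settings were 2 pseudocounts, 2 filters, equal totals, quantile normalization, scaling to the 7 stably expressed genes that the methods of the study name, a replicate block, an untrended prior, a fold threshold and leaving out each library. The limma, edgeR and DESeq2 fits were tested on data simulated for the 24-hour comparison of AZD5153 with DMSO, and the permutation test on simulated ratios.

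The members and lists were chosen with earlier results of these data known. All members are named, and genes of any list of at most 8, while of the long-patch list the 3 with the highest mean are named. Some list genes are not reported here by name. For each member the 3 genes with the nearest pattern were determined, of which the first is named, and all 3 for *PARP2*. Cell cycle lists came from Seurat 5.3.0. Coordinates, exons and transcript lengths are from GENCODE 44 on GRCh38, the same assembly as hg38, and promoters from RefSeq. The sources used here do not say how reads on bases shared with another gene were counted. Whether a member gained or lost reads there cannot be told. Ratios were computed with pandas 2.3.3 and numpy 2.4.6.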

Additional observations from a re-analysis of the deposited data

Results flagged for a closer look

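The treatment effect of 5 genes differed between the times by the interaction term of the limma fit, which is the effect at 48 hours minus that at 24 hours on the log2 scale. It was 1.28 for *PARP2* (adjusted p = 0.00045), 0.62 for *UNG* (0.00081), 0.24 for *PARP1* (0.0052), -0.25 for *APEX1* (0.049) and -0.41 for *LIG3* (0.012). Such a difference was called for 24.5% of all tested genes. With *PARP2* and *UNG* the treated libraries rose, by 0.89 and 0.30. The *UNG* controls fell by 0.32, and the change of the *PARP2* controls, -0.39, did not pass its test. With *APEX1* and *LIG3* the treated libraries moved away below the controls. *PARP1* was lower at 48 than at 24 hours in both treatments, by 0.35 in the controls and by 0.11 in the treated libraries. The call in the treated libraries was lost when any of 9 of the 12 libraries was left out, and the value was -0.028 with scaling to 7 stably expressed genes. The call of the *APEX1* difference was lost when any of 10 of the 12 was left out. No test of single outlying libraries was made in groups of 3, but DMSO at 24 hours replicate 1 stood apart from its replicates, as described for the libraries. Without it the 24-hour *OGG1* call was lost, and the *MGMT* change between the DMSO groups went from 0.42 to 0.26.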

How the results depend on the processing

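The number of the 10 genes past the threshold was 8 at 24 hours, 9 at 48 hours, 5 for the difference between the effects, 4 between the DMSO groups and 5 between the AZD5153 groups. With a log2 fold change of at least 1 also required, it was 3, 1, 1, 0 and 0, and over all tested genes it went from 10679 to 4140, from 10453 to 3959, from 3829 to 754, from 5566 to 580 and from 4627 to 573. Leaving out 1 library gave 7 to 8, 9 to 9, 4 to 5, 2 to 5 and 4 to 6 genes, the lowest DMSO count of 2 coming without DMSO at 48 hours replicate 2. Same-numbered libraries showed no shared deviation, their correlations running from -0.15 to 0.04 over 18 pairs, against -0.11 to 0.15 over 36 pairs with different numbers. With 3 libraries per group this cannot settle whether they were prepared in pairs, which the labels do not say. With the replicate number as a block the counts were 8, 9, 5, 5 and 4, and over all genes the block gave 10526 and 10290 calls at 24 and 48 hours. The ratios then had adjusted exact sign-flip p-values of 0.047 (*PARP1* to *PARP2*, 1.77), 0.047 (*LIG3* to *XRCC1*, 0.74) and 0.281 (*MUTYH* to *OGG1*, -0.63). The value for *PARP1* to *PARP2* was again fixed by the separate changes of these genes.

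Taken at 24 hours alone, where 3 libraries against 3 allow no p below 0.1, the log2 differences were 2.29 for *PARP1* to *PARP2* and 1.01 for *LIG3* to *XRCC1*, and at 48 hours alone 1.25 and 0.46, while *MUTYH* to *OGG1* was -1.30 at 24 hours and turned to 0.052 at 48 hours. Leaving out 1 library they ranged from 1.70 to 1.83, from 0.68 to 0.77 and from -0.91 to -0.33. The sign of a member's value turned only where it had not passed the test. Leaving out 1 library, *APEX1* at 24 hours ranged from -0.060 to 0.026, *MUTYH* at 48 hours from -0.021 (without DMSO replicate 1) to 0.79, and between the DMSO groups *OGG1* ranged from -0.038 to 0.19 and *POLB* from -0.047 to 0.088. *MGMT* between the AZD5153 groups ranged from -0.090 to 0.093 in this way and was 0.070 with scaling to 7 stably expressed genes, and *POLB* between the DMSO groups was -0.063 with quantile normalization. The cause was not tested. *MUTYH* had 3 to 26 reads per library, which limits the precision of its values.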
